A study of Homo sapiens with 6 samples.

Results

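NF-kappaB is a family of transcription factors that act as dimers of 5 related subunits, and 10 genes of this system were followed here in MM.1S cells after hairpins against IRF3. The set holds the subunits NFKB1, NFKB2, RELA, RELB and REL, the inhibitors NFKBIA and NFKBIE, the ubiquitin-editing feedback inhibitor TNFAIP3 (A20), and BIRC3 (cIAP2) and TRAF3, which act upstream. They were chosen by gene symbol, and all 10 were found among the 33095 genes listed in each of the authors' 2 deposited tables. MM.1S is an established human line derived from multiple myeloma, a plasma cell cancer. The cells were transduced with lentivirus carrying IRF3 shRNA 1, IRF3 shRNA 2 or a scramble control, with 2 libraries in each of the 3 groups. Every group is the same line grown in the same medium, and every group carries a lentiviral hairpin. The hairpin sequences, the time after transduction and whether the 2 libraries of a group are separate cultures are not stated in the labels, so the spread behind the p-values may be technical.

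In resting cells NF-kappaB dimers are held in the cytoplasm by inhibitors of the IkappaB family, of which NFKBIA and NFKBIE encode members. In the canonical pathway an IkappaB kinase marks the inhibitors for destruction and frees dimers such as RELA with the NFKB1 product p50. In the alternative pathway the kinase NIK, encoded by MAP3K14, leads to processing of the NFKB2 product p100 to p52, which pairs with RELB. TRAF3, with TRAF2 and the cIAP ubiquitin ligases, keeps NIK at a low level, and loss of this brake is a recurrent lesion of multiple myeloma. NFKBIA, NFKBIE, TNFAIP3, BIRC3, NFKB2 and RELB are themselves transcribed in response to NF-kappaB. IRF3 is a transcription factor activated by nucleic acid sensing, downstream of kinases that also feed into NF-kappaB.

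The tables hold a mean over libraries, a fold change and its standard error (SE) per gene, and give no values by library, so sequencing depth is unknown and replicates cannot be shown. Group means were therefore reconstructed from the overall mean and both fold changes of each gene, in normalised read counts. The targeted gene IRF3 had a reconstructed mean of 974 with shRNA 1, 2476 with shRNA 2 and 2809 with scramble. For IRF3 the authors' deposited tables give log2 fold changes of -1.53 ± 0.10 (SE; DESeq2 adjusted p = 8.45e-46) for shRNA 1 and -0.18 ± 0.10 (SE; DESeq2 adjusted p = 0.181) for shRNA 2. A fall of the target was thus detected in the libraries labelled shRNA 1 and not in those labelled shRNA 2, and directions given for shRNA 2 are those of libraries so labelled. IRF3 shares 734 exon bases with BCL2L12 on the opposite strand. All 9 plasma cell markers examined were present, at means of 1665 to 31453, and their summed reconstructed means were 105346 with shRNA 1, 94531 with shRNA 2 and 143273 with scramble. The markers did not all follow the sum. IRF4 had reconstructed means of 7613 with shRNA 1, 4823 with shRNA 2 and 17637 with scramble, SDC1 of 29654, 21396 and 24500 in the same groups, and CD38 of 1484, 2283 and 1229. Markers of B, T and NK cells, monocytes, fibroblasts, endothelium and epithelium had means of at most 210, the highest being the endothelial marker PECAM1, which plasma cells can also express, at 74.9 with shRNA 1, 116 with shRNA 2 and 438 with scramble. The part of these marker differences in the results below was not tested.

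With shRNA 1, NFKBIA, NFKB2, NFKBIE and BIRC3 were higher than with scramble and TNFAIP3 was lower, while NFKB1, RELA, RELB, REL and TRAF3 did not pass the test. With shRNA 2, NFKBIA, NFKB2 and BIRC3 were higher and no member passed as lower. All rises were modest, at most 1.61 times the scramble level. By the authors' DESeq2 test at an adjusted p below 0.05, 5 of the 10 genes had changed with shRNA 1, against 24.6% of all tested genes, with 4 higher (9.80% of all genes) and 1 lower (14.8%). With shRNA 2, 3 of the 10 had changed, all higher, against 29.0% of all tested genes (10.9% higher, 18.1% lower), a share near the background. At an adjusted p below 0.01, 3 of the 10 passed with shRNA 1 (17.1% of all genes) and 1 with shRNA 2 (21.8%). With a log2 fold change of at least 0.5 required beside an adjusted p below 0.05, likewise 3 passed with shRNA 1 (13.8% of all genes) and 1 with shRNA 2 (18.7%). No member had an unadjusted p below 0.05 in the lower direction with shRNA 2. The median log2 fold change of the 10 genes was 0.28 with shRNA 1 and 0.08 with shRNA 2, beside medians of -0.03 and 0.00 over all genes tested. Both comparisons use the same scramble libraries, so a deviation of the scramble group would enter both.

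**Figure D1:**
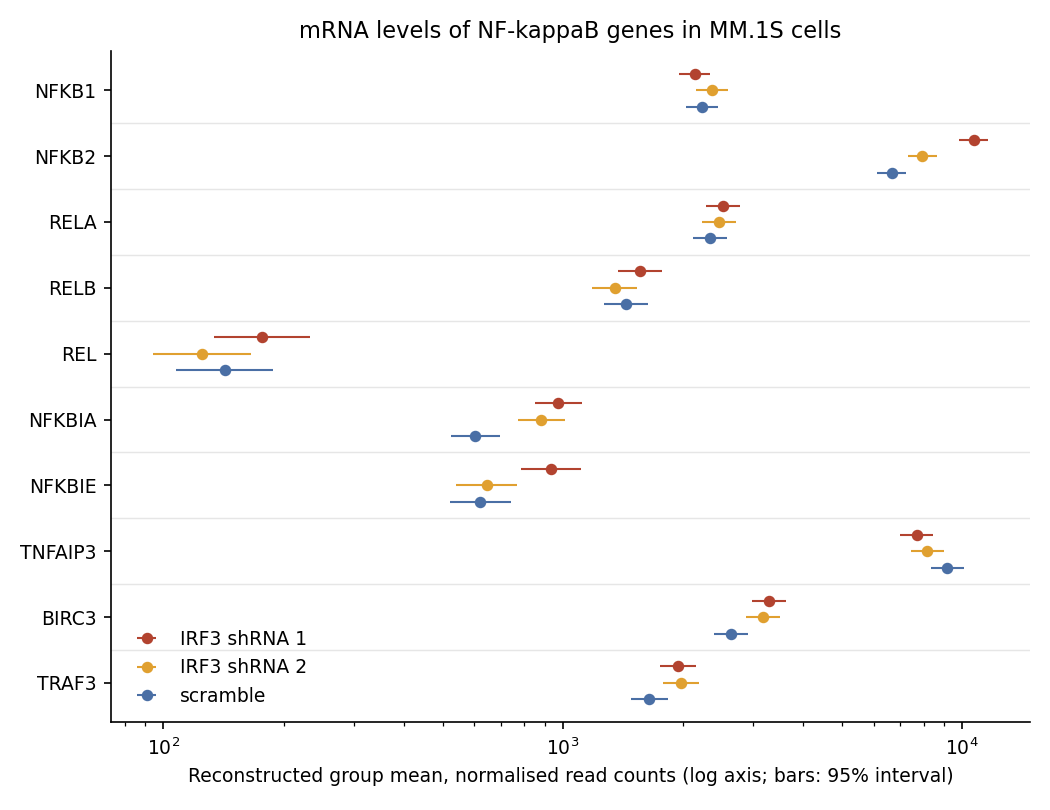
Reconstructed group means of the 10 genes in normalised read counts on a log axis, with IRF3 shRNA 1 above IRF3 shRNA 2 and scramble; points are group means of 2 libraries and bars are 95% intervals from the reconstructed variance. NFKB2 separates all 3 groups, at 10676, 7951 and 6658, while the 3 points of RELA lie between 2338 and 2513.

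Among the subunits, NFKB2 was the only one that passed in either comparison. NFKB2 (ENSG00000077150, chromosome 10, 102394110 to 102402529, plus strand, GRCh38) encodes p100, which is both the precursor of p52 and an inhibitor of NF-kappaB dimers. Its reconstructed mean was 10676 with shRNA 1 (95% interval 9827 to 11599), 7951 with shRNA 2 (7316 to 8641) and 6658 with scramble (6124 to 7238). The intervals of the 3 groups do not overlap, with shRNA 1 highest and scramble lowest. In the authors' deposited table for shRNA 1, NFKB2 had a log2 fold change of 0.68 ± 0.09 (SE; DESeq2 adjusted p = 2.05e-13), a ratio of 1.60 with a 95% interval of 1.43 to 1.80. For shRNA 2 the authors' deposited table gives NFKB2 0.26 ± 0.09 (SE; DESeq2 adjusted p = 0.0138), which is a ratio of 1.19 (1.06 to 1.34).

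NFKB1 (ENSG00000109320, chromosome 4, 102501329 to 102617302, plus strand) encodes p105, the precursor of p50. Its reconstructed means were 2136 with shRNA 1, 2362 with shRNA 2 and 2233 with scramble, with overlapping intervals. In the authors' deposited tables NFKB1 had log2 fold changes of -0.06 ± 0.10 (SE; DESeq2 adjusted p = 0.711) and 0.08 ± 0.09 (SE; DESeq2 adjusted p = 0.606) for shRNA 1 and shRNA 2. The 95% intervals of these ratios, 0.841 to 1.09 and 0.930 to 1.20, leave out a rise as large as that of NFKB2 with shRNA 1.

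RELA (ENSG00000173039, chromosome 11, 65653596 to 65663094, minus strand), the main activating subunit of the canonical pathway, had reconstructed means of 2513 with shRNA 1, 2464 with shRNA 2 and 2338 with scramble. According to the authors' deposited tables its log2 fold changes were 0.10 ± 0.10 (SE; DESeq2 adjusted p = 0.538) and 0.08 ± 0.10 (SE; DESeq2 adjusted p = 0.67). RELA lies close together in the 3 groups, with ratio intervals of 0.934 to 1.24 for shRNA 1 and 0.916 to 1.21 for shRNA 2.

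RELB (ENSG00000104856, chromosome 19, 45001430 to 45038198, plus strand), the partner of p52 in the alternative pathway, had reconstructed means of 1563 with shRNA 1, 1348 with shRNA 2 and 1436 with scramble. Log2 fold changes of RELB in the authors' deposited tables were 0.12 ± 0.13 (SE; DESeq2 adjusted p = 0.584) and -0.09 ± 0.13 (SE; DESeq2 adjusted p = 0.693), so a rise beside its partner gene NFKB2 was not detected. Its ratio intervals were 0.909 to 1.30 for shRNA 1 and 0.784 to 1.12 for shRNA 2.

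REL (ENSG00000162924, chromosome 2, 60881521 to 60931610, plus strand) encodes c-Rel, a subunit prominent in B cells before the plasma cell stage. It was the least abundant member, with reconstructed means of 176 with shRNA 1, 125 with shRNA 2 and 142 with scramble, and its wide intervals overlap. The authors' deposited tables give REL log2 fold changes of 0.31 ± 0.29 (SE; DESeq2 adjusted p = 0.512) and -0.19 ± 0.29 (SE; DESeq2 adjusted p = 0.72), and ratios from 0.834 to 1.84 and from 0.590 to 1.31 were compatible with these SEs. A noncoding gene annotated on the same strand, AC010733.2, shares 5702 exon bases with REL and had a mean of 376 beside 148 for REL in the authors' deposited tables, so the division of reads between them is uncertain.

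Counts per kilobase of the principal GENCODE transcript allow levels to be set side by side between genes. On this scale of reconstructed level per length, NFKB2 made up 61.6% ± 1.26 of the 5 subunit mRNAs with shRNA 1, 55.1% ± 1.31 with shRNA 2 and 51.1% ± 1.33 with scramble (SE from the reconstructed variance, 2 libraries a group). RELA made up 16.6% ± 0.836 with shRNA 1, 19.6% ± 0.940 with shRNA 2 and 20.6% ± 0.971 with scramble. The share of NFKB1 was 9.35% ± 0.477 with shRNA 1, 12.4% ± 0.605 with shRNA 2 and 13.0% ± 0.628 with scramble, although its own level did not pass. The 5 shares make up a fixed whole, so a rise of NFKB2 lowers the shares of RELA and NFKB1 without a fall of their own levels. REL made up 0.280% with shRNA 1, 0.239% with shRNA 2 and 0.301% with scramble. The uncertain division of reads between REL and AC010733.2 carries over to the REL shares.

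In scramble cells the order of levels per kilobase was NFKB2 (2147), TNFAIP3 (1936), RELA (866), RELB (626), NFKB1 (547), BIRC3 (508), NFKBIA (388), NFKBIE (241), TRAF3 (215) and REL (12.6). The neighbours NFKB2 and TNFAIP3, RELB and NFKB1, NFKB1 and BIRC3, and NFKBIE and TRAF3 did not differ beyond their 95% intervals, while the other neighbouring pairs did. These intervals leave out the uncertainty of transcript length and of the reads shared by REL and AC010733.2. The order depends on the transcript length assumed, and with the union of all annotated exons TNFAIP3 (1815) stood above NFKB2 (1485) in scramble cells. RELB (473) also stood above RELA (428) in scramble cells with this length, the reverse of the order above. With that length, NFKB2 still made up the largest share of the 5 subunits, 64.2% with shRNA 1, 58.0% with shRNA 2 and 53.9% with scramble.

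The inhibitors did not move as a group. NFKBIA (ENSG00000100906, chromosome 14, 35401511 to 35404749, minus strand) encodes IkappaB-alpha, the inhibitor that is resynthesised after NF-kappaB activation and ends the response. Its reconstructed mean was 973 with shRNA 1 (850 to 1114), 883 with shRNA 2 (771 to 1012) and 604 with scramble (526 to 695). Both hairpin groups lie above scramble without overlap of the 95% intervals, and they overlap each other. In the table for shRNA 1 deposited by the authors, NFKBIA had a log2 fold change of 0.69 ± 0.14 (SE; DESeq2 adjusted p = 2.25e-05), a ratio of 1.61 (1.33 to 1.96). The authors' deposited table for shRNA 2 gives 0.55 ± 0.14 (SE; DESeq2 adjusted p = 0.000809), a ratio of 1.46 (1.20 to 1.78). NFKBIA had the highest fold change of the set with each hairpin and kept its call under every alternative threshold, filter and centring tried.

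NFKBIE (ENSG00000146232, chromosome 6, 44258166 to 44265788, minus strand) encodes IkappaB-epsilon, an inhibitor with slower feedback kinetics. It had a reconstructed mean of 935 with shRNA 1 (787 to 1112), 645 with shRNA 2 (541 to 769) and 621 with scramble (521 to 741). The shRNA 1 group alone stands apart, above the intervals of both others. NFKBIE passed with shRNA 1 at 0.59 ± 0.18 (SE; log2 fold change, DESeq2 adjusted p = 0.00725) and not with shRNA 2 at 0.05 ± 0.18 (SE; DESeq2 adjusted p = 0.884), as given in the authors' deposited tables.

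TNFAIP3 (ENSG00000118503, chromosome 6, 137867188 to 137883312, plus strand) encodes A20, which removes and adds ubiquitin chains on upstream signalling proteins and so ends NF-kappaB activation. Together with NFKB2 it was the most abundant member in reads, above 97.8% of all genes tested, with reconstructed means of 7699 with shRNA 1 (6997 to 8471), 8176 with shRNA 2 (7431 to 8995) and 9169 with scramble (8335 to 10086). Scramble is highest, the reverse of NFKBIA, and the intervals of neighbouring groups overlap. The authors' deposited table for shRNA 1 gives TNFAIP3 a log2 fold change of -0.25 ± 0.10 (SE; DESeq2 adjusted p = 0.0461), a ratio of 0.840 (0.734 to 0.961). This call was lost without the filter on low genes (adjusted p = 0.104) and on recentring to the median gene (adjusted p = 0.111), both recomputed from the deposited Wald values. With shRNA 2 the log2 fold change of TNFAIP3 was -0.17 ± 0.10 (SE; DESeq2 adjusted p = 0.227, authors' deposited table), a ratio of 0.892 (0.779 to 1.02). An annotated antisense gene, AL357060.1, shares 95 exon bases with TNFAIP3 and had a mean of 594, and the sources used here do not give whether counting used strand.

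BIRC3 (ENSG00000023445, chromosome 11, 102317450 to 102339403, plus strand) encodes a ubiquitin ligase that works with TRAF2 and TRAF3 and is a classical NF-kappaB target. Its reconstructed mean was 3290 with shRNA 1 (2983 to 3629), 3166 with shRNA 2 (2870 to 3493) and 2640 with scramble (2392 to 2914). The hairpin groups are close to each other and both higher than scramble, though the shRNA 2 and scramble intervals overlap. From the authors' deposited tables, BIRC3 had log2 fold changes of 0.32 ± 0.10 (SE; DESeq2 adjusted p = 0.0111) for shRNA 1 and 0.26 ± 0.10 (SE; DESeq2 adjusted p = 0.0382) for shRNA 2, ratios of 1.25 (1.08 to 1.43) and 1.20 (1.04 to 1.38). The call with shRNA 2 was lost without the filter on low genes (adjusted p = 0.0735, recomputed).

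TRAF3 (ENSG00000131323, chromosome 14, 102777476 to 102911500, plus strand) encodes the adaptor that delivers NIK for degradation. It had reconstructed means of 1943 with shRNA 1 (1747 to 2160), 1977 with shRNA 2 (1778 to 2198) and 1644 with scramble (1477 to 1830). Both hairpin groups lie above scramble by about the same amount, with overlapping intervals. TRAF3 passed in neither of the authors' deposited tables, and lay close to the threshold with shRNA 2, at 0.24 ± 0.11 (SE; log2 fold change, DESeq2 adjusted p = 0.1) for shRNA 1 and 0.27 ± 0.11 (SE; DESeq2 adjusted p = 0.0553) for shRNA 2. On recentring to the median gene, which lay at -0.04 in both comparisons, it passed in both (recomputed adjusted p = 0.0458 and 0.0229).

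**Figure D2:**
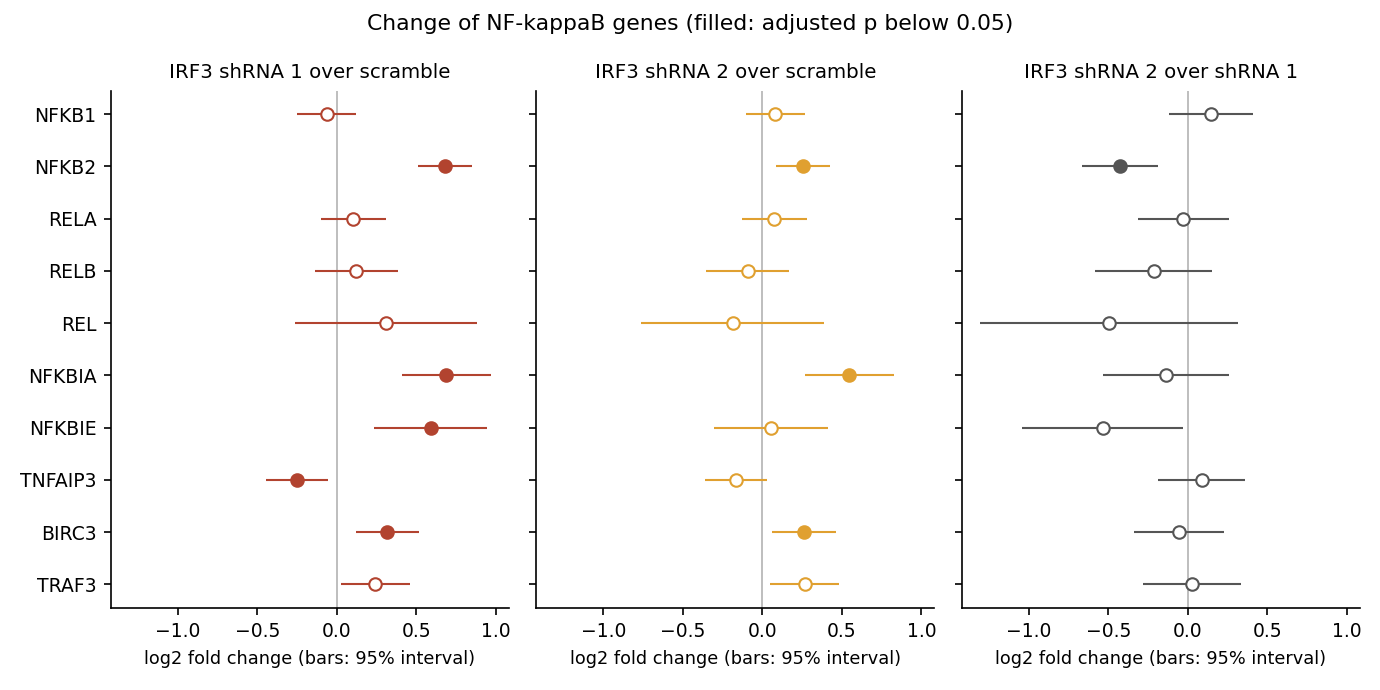
Log2 fold changes of the 10 genes, from left to right for IRF3 shRNA 1 over scramble, IRF3 shRNA 2 over scramble and IRF3 shRNA 2 over shRNA 1; bars are 95% intervals and filled points have an adjusted p below 0.05. NFKBIA, NFKB2 and BIRC3 are filled and to the right of 0 in both comparisons with scramble, and NFKB2 is the 1 filled gene of the last panel, at -0.43.

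Whether the hairpins differed was tested with a two-sided z, dividing the gap between both log2 fold changes by the root of the summed squared SEs, with Benjamini-Hochberg adjustment over 14488 genes. Of the 10 genes, 1 differed, against 24.0% of all genes (10.1% higher and 13.8% lower with shRNA 2). NFKB2 was lower with shRNA 2 than with shRNA 1, by -0.43 ± 0.12 on the log2 scale (SE; Benjamini-Hochberg adjusted p = 0.0038), a ratio of 0.745. NFKBIE had a difference of -0.54 ± 0.26 (SE; adjusted p = 0.123) and did not pass. That SE counts the shared scramble libraries in both terms and is too large. With an SE from the 2 hairpin groups only, NFKBIE also passed, at -0.54 ± 0.18 (SE; adjusted p = 0.0104), and 39.4% of all genes passed with that SE, so whether NFKBIE is called different between the hairpins depends on the SE used. For NFKBIA the difference was -0.14, with a 95% interval of -0.54 to 0.26, for BIRC3 -0.06 (-0.34 to 0.23), for TNFAIP3 0.09 (-0.19 to 0.36) and for TRAF3 0.02 (-0.28 to 0.33). These intervals use the summed SEs and do not show that the hairpins acted alike on those genes. For REL the interval was -1.31 to 0.31, the widest of the set.

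NFKBIA, NFKB2 and BIRC3, which were higher with both hairpins, and TNFAIP3, which had its highest mean with scramble, are all known as direct NF-kappaB targets, and their promoter sequences are shown so that the sites can be seen. The windows run from 250 bases before to 50 after the RefSeq gene start and come from RefSeq (GRCh38.p14), not from MM.1S DNA. RefSeq windows matched 8 of the 10 genes, and NFKBIE and RELB had no entry. Capitals mark every match to the NF-kappaB kappaB consensus decamer on either strand, and overlapping matches run together.
NFKBIA, chr14:35404700-35404999, minus strand: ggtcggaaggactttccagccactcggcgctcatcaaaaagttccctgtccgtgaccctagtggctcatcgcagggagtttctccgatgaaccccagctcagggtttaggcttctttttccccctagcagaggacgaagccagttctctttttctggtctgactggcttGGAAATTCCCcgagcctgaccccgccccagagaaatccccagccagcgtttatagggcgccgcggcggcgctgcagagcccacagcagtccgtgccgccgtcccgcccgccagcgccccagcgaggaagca
NFKB2, second of 3 gene starts, chr10:102394328-102394627, plus strand: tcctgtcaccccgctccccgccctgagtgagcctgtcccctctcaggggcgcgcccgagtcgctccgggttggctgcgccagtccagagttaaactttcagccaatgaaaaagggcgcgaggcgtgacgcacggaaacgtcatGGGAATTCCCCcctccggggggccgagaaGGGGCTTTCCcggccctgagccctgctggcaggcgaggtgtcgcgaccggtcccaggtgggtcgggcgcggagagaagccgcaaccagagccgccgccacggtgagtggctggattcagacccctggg
BIRC3, chr11:102317234-102317533, plus strand: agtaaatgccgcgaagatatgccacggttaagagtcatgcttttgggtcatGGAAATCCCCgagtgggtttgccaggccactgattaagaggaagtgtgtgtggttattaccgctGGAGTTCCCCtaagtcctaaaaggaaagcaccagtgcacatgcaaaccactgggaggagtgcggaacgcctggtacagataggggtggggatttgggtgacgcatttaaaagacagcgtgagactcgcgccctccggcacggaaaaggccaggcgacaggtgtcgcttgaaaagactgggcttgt
TNFAIP3, chr6:137867009-137867308, plus strand: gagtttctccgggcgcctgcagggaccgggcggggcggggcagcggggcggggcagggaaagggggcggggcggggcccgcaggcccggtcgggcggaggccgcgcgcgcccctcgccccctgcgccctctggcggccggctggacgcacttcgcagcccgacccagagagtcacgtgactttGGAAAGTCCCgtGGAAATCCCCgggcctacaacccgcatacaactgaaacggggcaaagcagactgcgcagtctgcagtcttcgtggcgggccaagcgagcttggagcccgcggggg

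The consensus was found in 3956 of 35116 RefSeq promoter windows, 11.3%, and in 8 of the 12 windows of the set, 66.7%, which belong to 7 of the 8 matched genes. In NFKBIA the match lies 81 to 72 bases before the start. In NFKB2 the second window holds a palindromic match from 107 to 98 bases before the start, which counts on both strands and overlaps a further match, and another from 78 to 69 bases before. The window of the third start also holds matches, the nearest at 21 to 12 bases before it, and the window of the first start, which is the GENCODE gene start, holds none. TNFAIP3 carries a closely spaced pair, 67 to 58 and 55 to 46 bases before its start, and BIRC3 a pair at 199 to 190 and 135 to 126 bases before. The remaining genes with a match did not pass in either comparison, and their decamers are given as they stand on the gene's strand. REL has a further match on the opposite strand, 46 to 37 bases before its start, which overlaps the one shown.
NFKB1, first of 2 gene starts, 49 to 40 bases before: GGGAATTTCC
REL, 47 to 38 bases before: GGGAAATTCC
TRAF3, 33 to 24 bases before: GGGGATTTCC

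The matched genes that rose, TNFAIP3, and 3 genes that did not pass thus all carried the decamer, while RELA, which did not pass, had none in either of its windows. An interferon-stimulated response element (ISRE) core, searched on either strand, to which IRF proteins can bind, was in 3.57% of all windows and in 1 window of the set, that of the second RELA start in coordinate order, 237 to 228 bases before it. A match is a description of the letters in these windows, and binding was not measured.

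**Figure D3:**
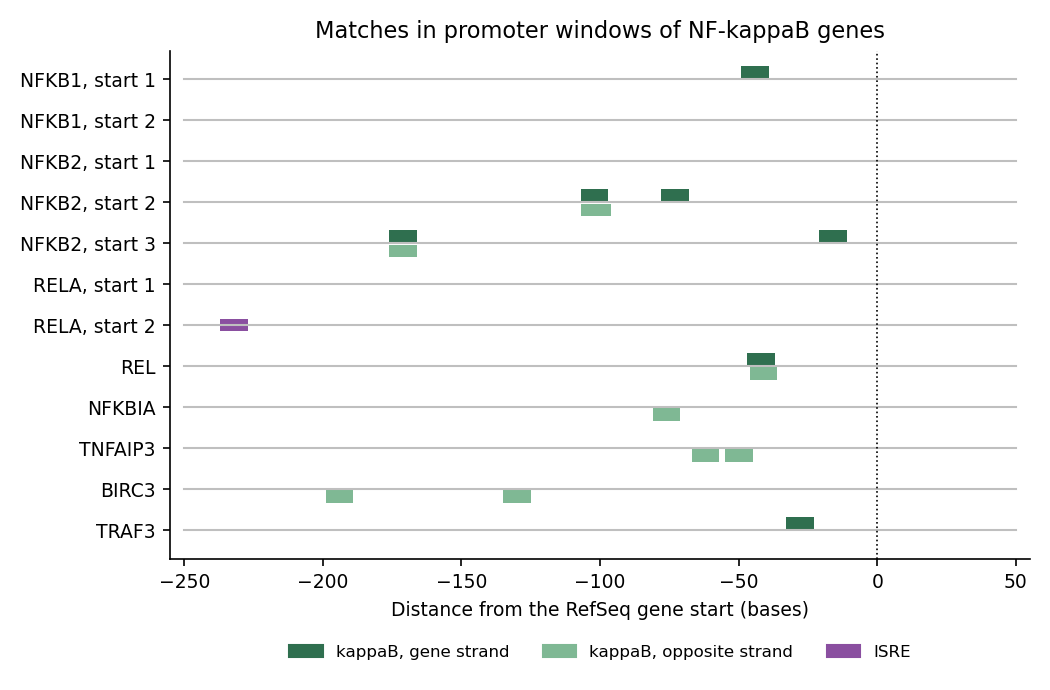
Positions of kappaB consensus matches (green, dark on the gene's strand and light on the opposite strand) and of the ISRE core (purple) in the 12 RefSeq promoter windows of 8 genes, in bases from the gene start (dotted line). Matches in NFKB1, REL, NFKBIA, TNFAIP3 and TRAF3 lie within 81 bases before the start, and those of BIRC3 lie further out, from 199 bases before.

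Other genes of the pathway were examined in 6 lists of 122 distinct genes, of which 1, MALT1, stands in 2 lists. With shRNA 1, 32 of 88 tested list genes had changed, 19 higher and 13 lower, with a median log2 fold change of 0.06, beside 24.6% of all tested genes changed. With shRNA 2, 40 of 96 had changed, 23 higher and 17 lower, with a median of 0.03, beside 29.0% of all tested genes. SOD2 and TAB2 were left out because their symbols stand on more than 1 row, and CXCL1, CXCL2 and CD40LG were not analysed here.

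A group of genes used together as an index of NF-kappaB activity in myeloma includes NFKB2, RELB, NFKBIA, NFKBIE, TNFAIP3 and BIRC3, and the other 5 genes of that index were IL2RG, CD74, PLEK, MALT1 and WNT10A. With shRNA 1, 4 of these 5 were higher and 1 lower, with a median log2 fold change of 0.39. With shRNA 2, 2 were higher and 0 lower by DESeq2, with 2 lower at an unadjusted p below 0.05 and a median of 0.06. Beside these counts, 9.80% of all tested genes were higher and 14.8% lower with shRNA 1 by DESeq2. The same shares with shRNA 2 were 10.9% and 18.1%. IL2RG, the common gamma chain of cytokine receptors, had reconstructed means of 11779 with shRNA 1, 12089 with shRNA 2 and 6370 with scramble. Its log2 fold changes were 0.89 ± 0.08 (SE; DESeq2 adjusted p = 7.13e-24) and 0.92 ± 0.08 (SE; DESeq2 adjusted p = 3.36e-26) in the authors' deposited tables, larger than those of any of the 10 genes. CD74, the MHC class II invariant chain, was at 0.48 ± 0.10 with shRNA 1 and 0.06 ± 0.10 (SE) with shRNA 2 in the authors' deposited tables, and the 2 hairpins differed (z test, adjusted p = 0.0123). PLEK, encoding the signalling protein pleckstrin, rose with shRNA 1 at 0.39 ± 0.11 and was at -0.27 ± 0.11 (SE) with shRNA 2 without passing, per the authors' deposited tables, and again the hairpins differed (z test, adjusted p = 0.000471). WNT10A, a secreted signalling protein, rose with both, at 0.24 ± 0.09 and 0.22 ± 0.09 (SE) in the authors' deposited tables. MALT1, a protease of the signalling complex below antigen receptors, fell with shRNA 1, at -0.35 ± 0.11, and was at -0.25 ± 0.11 (SE) with shRNA 2, which did not pass, per the authors' deposited tables.

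Among 20 receptors that feed the pathway, BCMA, TACI and TLR4 were lower with both hairpins. Of 10 tested with shRNA 1, 2 were higher and 3 lower, with a median of -0.31. Among all tested genes, 9.80% were higher and 14.8% lower with shRNA 1. Of 15 receptors tested with shRNA 2, 1 was higher and 3 lower, with a median of -0.14. That is near the background with shRNA 2, where 29.0% of all tested genes had changed, 10.9% higher and 18.1% lower. TNFRSF17 (BCMA), a receptor for the survival ligands BAFF and APRIL, had reconstructed means of 4150 with shRNA 1, 1567 with shRNA 2 and 5145 with scramble. It fell in both, at -0.31 ± 0.10 and -1.71 ± 0.10 (SE) in the authors' deposited tables. TNFRSF13B (TACI), the other receptor of these ligands listed here at high level, was lowest with shRNA 1, with reconstructed means of 2177 with shRNA 1, 3693 with shRNA 2 and 4783 with scramble. Its log2 fold changes were -1.14 ± 0.11 and -0.37 ± 0.11 (SE) in the authors' deposited tables, both passing. The hairpins differed for both receptor genes (z test, adjusted p = 2.31e-21 for TNFRSF17 and 9.67e-06 for TNFRSF13B). TNFRSF1A, the main TNF receptor, rose with shRNA 1 at 0.52 ± 0.11 and was at -0.14 ± 0.11 (SE) with shRNA 2, which did not pass. TLR4 fell with both hairpins (-0.43 ± 0.13 and -0.60 ± 0.13, SE), and TLR9, at a mean of 72.7, rose with shRNA 2 at 1.71 ± 0.50 (SE), all from the authors' deposited tables.

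Few ligands of the tumour necrosis factor family passed, and those that did were higher. Of 7 tested with shRNA 1, 2 were higher and 0 lower (DESeq2, and 0 lower at an unadjusted p below 0.05), and of 8 tested with shRNA 2, 2 were higher and 0 lower (likewise 0 unadjusted). Over all tested genes by DESeq2, 24.6% had changed with shRNA 1, 9.80% higher and 14.8% lower. With shRNA 2, 29.0% of all tested genes had changed, 10.9% higher and 18.1% lower. The shares of ligands that changed were near these, so the counts do not set the ligands apart. CD70 was higher with both, at 0.65 ± 0.18 and 0.48 ± 0.18 (SE), TNFSF9 with shRNA 1 at 0.95 ± 0.26 and LTB, a lymphotoxin subunit at a low mean of 41.0, with shRNA 2 at 2.42 ± 0.57 (SE), in the authors' deposited tables. TNFSF10 and TNFSF13 passed with neither hairpin. TNFSF10 was at -0.52 ± 0.28 with shRNA 1 and -0.35 ± 0.28 (SE) with shRNA 2 in the authors' deposited tables. TNFSF13 was at 0.23 ± 0.19 and 0.25 ± 0.19 (SE) in the same tables.

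Adaptors and kinases moved in both directions, 5 higher and 6 lower of 28 with shRNA 1 and 6 higher and 2 lower of 28 with shRNA 2, with medians of 0.06 and 0.09. The background over all tested genes was 9.80% higher and 14.8% lower with shRNA 1, and 10.9% and 18.1% with shRNA 2. TRAF1, an adaptor that is itself an NF-kappaB target, had reconstructed means of 1034 with shRNA 1, 750 with shRNA 2 and 546 with scramble. It rose with both hairpins, at 0.92 ± 0.13 and 0.46 ± 0.14 (SE) in the authors' deposited tables. TRADD, the adaptor of TNF receptor 1, rose at 0.50 ± 0.11 and 0.80 ± 0.10 (SE), and the kinase gene MAP3K3 fell at -1.16 ± 0.14 and -0.80 ± 0.14 (SE), per the authors' deposited tables. IRAK1, a kinase below Toll-like receptors, fell with shRNA 1 at -0.93 ± 0.09 (SE) and did not pass with shRNA 2, at -0.15 ± 0.09 (SE), in the authors' deposited tables. For IRAK1 the hairpins differed (z test, adjusted p = 2.17e-08). MAP3K14, which encodes NIK and is named here after its values were seen, had reconstructed means of 1934 with shRNA 1, 1389 with shRNA 2 and 1254 with scramble. In the authors' deposited tables MAP3K14 was at 0.63 ± 0.11 (SE; DESeq2 adjusted p = 9.18e-08) with shRNA 1 and 0.15 ± 0.11 (SE; DESeq2 adjusted p = 0.34) with shRNA 2, and the hairpins differed (z test, adjusted p = 0.0093). The genes of the catalytic IkappaB kinase subunits, CHUK and IKBKB, also named after their values were seen, passed with neither hairpin, while the gene of the regulatory subunit, IKBKG, was lower with shRNA 1. IKBKG was at -0.34 ± 0.14 (SE; DESeq2 adjusted p = 0.0499) with shRNA 1 and -0.27 ± 0.13 (SE; DESeq2 adjusted p = 0.132) with shRNA 2 in the authors' deposited tables. CHUK was at -0.27 ± 0.13 and -0.20 ± 0.13 (SE), and IKBKB at 0.12 ± 0.11 and 0.24 ± 0.11 (SE), in the authors' deposited tables.

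Other inhibitors and ubiquitin editors were 4 higher and 2 lower of 25 with shRNA 1 and 5 higher and 5 lower of 25 with shRNA 2, with medians of 0.01 and -0.03. With shRNA 1, 24.6% of all tested genes had changed (9.80% higher, 14.8% lower), so the share of this list that changed was near the background. The background with shRNA 2 was 29.0% (10.9% higher, 18.1% lower). The deubiquitinases OTULIN and OTUD7B, which restrain canonical and alternative signalling, fell with both hairpins. OTULIN was at -0.69 ± 0.13 and -0.43 ± 0.13 (SE) and OTUD7B at -1.28 ± 0.16 and -0.63 ± 0.16 (SE) in the authors' deposited tables. TNIP2, an A20-binding inhibitor, rose with shRNA 2 at 0.67 ± 0.11 (SE), and RNF11, a partner of A20, fell with it at -0.87 ± 0.11 (SE), while neither passed with shRNA 1 at 0.27 ± 0.11 and 0.26 ± 0.11 (SE), per the authors' deposited tables. CUL1, the scaffold of the ligase that destroys IkappaB proteins, fell with shRNA 2 at -0.52 ± 0.08 and was at -0.07 ± 0.08 (SE) with shRNA 1 in the authors' deposited tables.

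Further genes reported as NF-kappaB targets went both ways. With shRNA 1, 2 of 14 tested were higher and 2 lower, with a median of 0.05, and with shRNA 2, 7 of 16 were higher and 7 lower, with a median of -0.11. That is 4 of 14 changed with shRNA 1 and 14 of 16 with shRNA 2, beside 24.6% and 29.0% of all tested genes. NINJ1, an adhesion and membrane rupture protein, rose with both at 0.81 ± 0.13 and 1.01 ± 0.13 (SE) in the authors' deposited tables. CXCL10, a chemokine induced by interferon as well as NF-kappaB, had reconstructed means of 409 with shRNA 1, 2274 with shRNA 2 and 387 with scramble. Log2 fold changes of CXCL10 were 0.08 ± 0.42 and 2.55 ± 0.42 (SE) in the authors' deposited tables, with wider SEs than those of NINJ1. The chemokine CCL3 had reconstructed means of 5216 with shRNA 1, 556 with shRNA 2 and 11077 with scramble, and its reads may be shared with its near copy CCL3L1. CCL3 fell with both hairpins, at -1.09 ± 0.11 and -4.32 ± 0.12 (SE), in the authors' deposited tables. CCL5 and CCND1 fell with shRNA 2, at -1.17 ± 0.15 and -2.81 ± 0.24 (SE), and did not pass with shRNA 1, at 0.33 ± 0.14 and 0.16 ± 0.22 (SE), in the authors' deposited tables. For these genes other than NINJ1 the hairpins differed, with z test adjusted p-values of 0.000297 for CXCL10, 8.99e-84 for CCL3, 2.48e-11 for CCL5 and 1.8e-17 for CCND1.

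**Figure D4:**
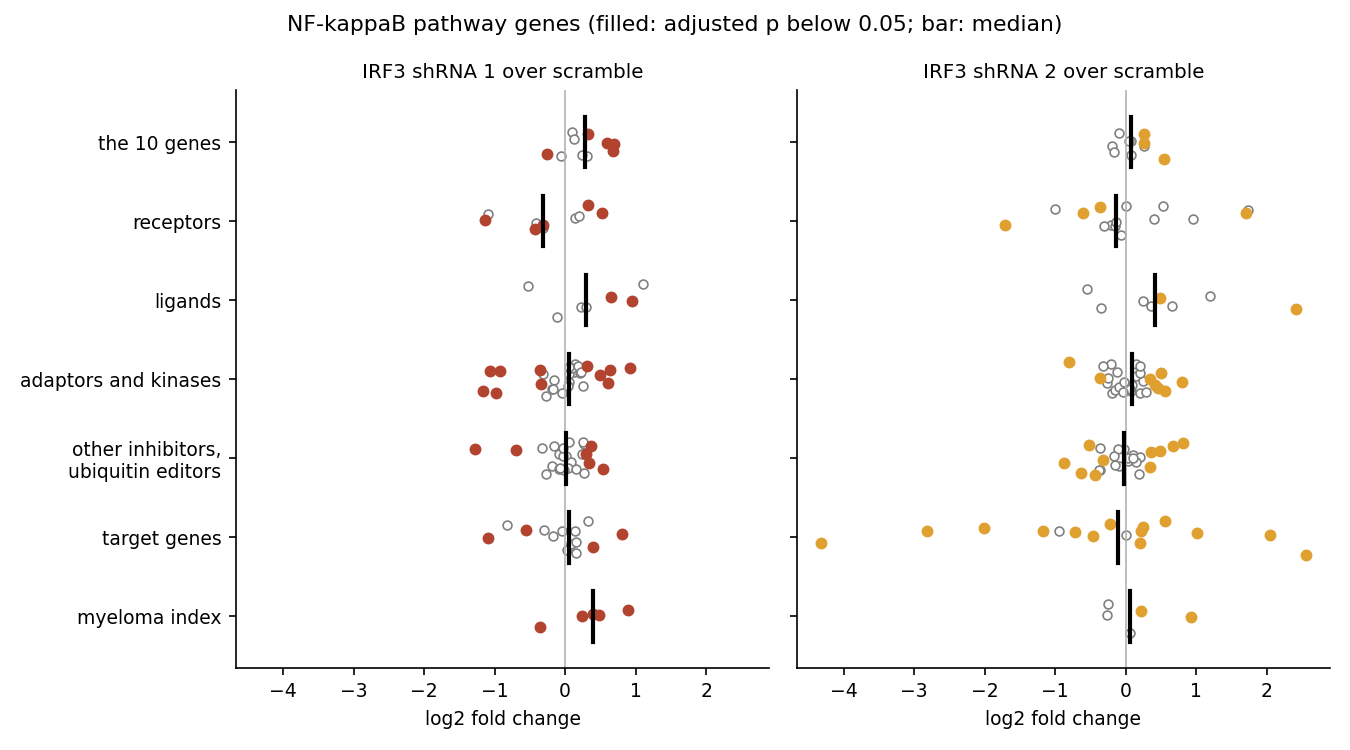
Log2 fold changes of the 10 genes and of tested genes of 6 pathway lists, for IRF3 shRNA 1 over scramble (left) and IRF3 shRNA 2 over scramble (right); each point is a gene, filled where the DESeq2 adjusted p is below 0.05, and the bar is the list's median. The 10 genes lie between -0.25 and 0.69 with shRNA 1 and between -0.19 and 0.55 with shRNA 2, a narrower spread than that of the target genes, from -1.09 to 0.81 and from -4.32 to 2.55.

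The genes nearest to NFKBIA by the Euclidean distance of the 2 log2 fold changes, among 11826 other genes with a mean of 50 or more, were UNC93B1 (distance 0.00927, 0.69 with shRNA 1 and 0.54 with shRNA 2), PQLC3 (0.022, 0.69 and 0.53) and C1orf52 (0.0252, 0.71 and 0.56), from the authors' deposited tables. This likeness rests on only 2 fold changes that share their scramble libraries.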

How the data were processed

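MM.1S RNA was poly(A)-selected and sequenced, with 2 libraries per group, per the labels' protocols. Groups follow the hairpin in the sample titles. The submitters' processing notes name Salmon 0.12.0, DESeq2 1.24.0 and GRCh38 (hg38). The authors deposited 2 tables of comparisons. Their columns, per the file headers, are a signal (the mean of normalised read counts), a log2 fold change with its SE, a Wald score, and raw and adjusted p-values. The column names do not give the direction of the fold change. It was read as shRNA over scramble, and the signs were checked as described below. The deposited score equalled the log2 fold change over its SE to within 3.27e-07. The means of all 33095 genes are the same in each table. Adjusted p-values are given for 14488 genes (shRNA 1) and 17054 genes (shRNA 2), and genes without one were not counted.

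Computed here (Python 3.11.15, scipy 1.17.1) were the reconstructed group means, assuming one fit of all 6 libraries. The dispersions that both tables imply for a member differed by at most 2.7%. The coding of both signs was checked on dispersions of genes other than IRF3, which agreed best as coded (median absolute log ratio 0.00729, against 0.0597 to 0.158 with signs turned). The z test of the difference between hairpins was adjusted by Benjamini-Hochberg and tested on simulated data. Intervals are 95% and cover the variance as modelled. Coordinates and transcript lengths come from GENCODE 29 (GRCh38), and promoters from RefSeq (GRCh38.p14). The members, lists and tests were chosen with earlier results of these data known. Named genes are all members, IRF3, up to 5 genes of each list with the lowest p, and the 3 genes nearest to the member with the largest fold changes, except 1 gene that is not reported here. Alternatives tried were other thresholds, a log2 fold change minimum of 0.5, the filter on low genes, recentring and the SE of the difference.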

Additional observations from a re-analysis of the deposited data

Results flagged for a closer look

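The 2 hairpins differed for NFKB2, by -0.43 on the log2 scale (shRNA 2 minus shRNA 1), in the z test of the difference between their fold changes. NFKB2 was above scramble with both hairpins. IRF3, the targeted gene, differed between the same groups by 1.35 ± 0.15 (SE). The part of the target's level in the NFKB2 difference was not tested.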

How the results depend on the processing

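Of 90 recomputed values of single members under other filters, centring and SEs, 83 stayed on the same side of the threshold, 7 did not and 0 changed sign. The 5 members called with shRNA 1 became 3 at an adjusted p below 0.01 and 3 with a log2 fold change of at least 0.5 (NFKB2, NFKBIA and NFKBIE in each case), beside 17.1% and 13.8% of all genes. The 3 called with shRNA 2 became 1, NFKBIA, under each of these, beside 21.8% and 18.7% of all genes. Pathway genes called at a log2 fold change of at least 0.5 numbered 19 with shRNA 1 and 22 with shRNA 2, beside 32 and 40 without a minimum. With an SE of the 2 hairpin groups only, which is smaller by construction, 2 members (NFKB2 and NFKBIE) and 42 pathway genes differed between hairpins, instead of 1 and 26, and 39.4% of all genes did so, instead of 24.0%. TRAF3 with shRNA 2 passed when only genes with a mean of at least 50 were adjusted for (adjusted p = 0.0441). No paired analysis was possible because the tables hold no values of single libraries, and leaving out each replicate in turn was not run for the same reason. The depth of the libraries is unknown, and REL, the member at the lowest level, had the widest SE, 0.29.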
